A study of Salvia miltiorrhiza with 5 samples.

Results

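Among the small RNAs listed for the medicinal sage *S. miltiorrhiza*, 3 sequences belonged to the miRNA families miR2916, miR6478 and miR6173. They were found by taking every entry whose name holds 1 of these family numbers, which gave 3 of the 241 distinct sequences in the table, 1 sequence per family. The families were chosen by their total reads, high for miRNAs known from few plants, so these totals are given as a description with no test. The plants were in flower after 8 months of growth. Their root, stem, leaf and flower gave 1 small RNA library each, and a mixture of these tissues gave 1 library of cleaved mRNA ends (the degradome). No treatment or mutant was part of the design. As no tissue was sequenced more than once, there is no spread between replicates, and the differences below are between libraries.

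Plant miRNAs are cut by a Dicer-like enzyme from a folded precursor transcript (pre-miRNA), are loaded into an Argonaute protein and guide it to complementary mRNAs, which are then usually cleaved. A small RNA read can also be a piece of a longer and very abundant RNA. Ribosomal RNA (rRNA) builds the ribosomes of the cytosol, the plastid and the mitochondrion, and transfer RNA (tRNA) carries amino acids to them. The registered miR2916 sequence is known to resemble the small-subunit rRNA of the cytosolic ribosome, miR6173 that of the plastid ribosome, and miR6478 the 5′ end of a tyrosine tRNA. No well-established mRNA target is known for the 3 families.

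The reads themselves are shown first because the comparisons that follow rest on these 3 sequences. Capitals mark the seed, bases 2 to 8 from the 5′ end, the stretch that pairs first with a target.
miR2916: tGGGGGCTcgaagacgatc
miR6478: cCGACCTTagctcagttggtaga
miR6173: tAGCCGTAaacgatggatact
The 3 seeds differed from each other, and each was held by 1 of the 241 sequences of the table. The miR2916 read had 19 nt, the miR6478 read 23 nt and the miR6173 read 21 nt. The length of miR6173 was the commonest, with 96 of 241 sequences and 24 of the 38 sequences that had at least 100 reads. The other lengths were rarer. There were 11 sequences of 19 nt, 1 of them (miR2916) with at least 100 reads, and 20 sequences of 23 nt, 3 of them with at least 100 reads. miR2916 and miR6173 began with T (U in the RNA), as did 116 of the 241 sequences. miR6478 began with C, as did 38 of the 241.

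The precursors listed for the reads came from other plants, peu-MIR2916 and ptc-MIR6478 from poplars and hbr-MIR6173 from the rubber tree. Each read had been matched to a known mature miRNA and to no expressed sequence tag (EST) of the sage. Of the 607 entries of known miRNAs in the table, 601 had no EST match. The whole precursors are shown because the position of the read and the repeats around it differ between the families. Here capitals mark the bases that the read covers.
peu-MIR2916: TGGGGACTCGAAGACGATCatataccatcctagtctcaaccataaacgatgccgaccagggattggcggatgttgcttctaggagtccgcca
ptc-MIR6478: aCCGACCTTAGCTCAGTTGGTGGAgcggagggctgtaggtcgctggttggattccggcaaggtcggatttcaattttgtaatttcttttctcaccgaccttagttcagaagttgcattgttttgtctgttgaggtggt
hbr-MIR6173: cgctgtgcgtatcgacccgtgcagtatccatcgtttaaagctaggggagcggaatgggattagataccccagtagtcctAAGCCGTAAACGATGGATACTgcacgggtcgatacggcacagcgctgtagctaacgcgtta
miR2916 covered bases 1 to 19 of 92, miR6478 bases 2 to 24 of 138, and miR6173 bases 80 to 100 of 140. A read that began at base 1 or 2 of its precursor was rare, with 22 of the 604 pairs of a sequence and a precursor among known miRNAs.

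Every one of the 3 reads differed from its listed precursor at 1 base. With positions counted from 1 at the 5′ end of the read, and the precursor's base given first, the change was A6G in miR2916, G21A in miR6478 and A1T in miR6173. Such a difference was the usual case in the table, where 429 of the 604 pairs had 1 mismatch and 174 had none. In miR2916 the changed base lies inside the seed, in miR6478 near the 3′ end and in miR6173 at the first base. The read of miR2916, listed as peu-miR2916_R-4_1ss6AG, is 4 bases shorter at its 3′ end than the registered miRNA. That of miR6478, listed as ptc-miR6478_R+2_1ss21GA, is 2 bases longer at its 3′ end, and that of miR6173, listed as hbr-miR6173_L+1, is 1 base longer at its 5′ end, where the added base is the changed one. The change is in capitals in the reads below.
miR2916: tggggGctcgaagacgatc
miR6478: ccgaccttagctcagttggtAga
miR6173: Tagccgtaaacgatggatact
All reads of these families fell on 1 entry each and were not divided between entries. No other sequence of the table could be placed on the 3 precursors with at most 2 mismatches on either strand, so no second read from the opposite arm of the hairpin was listed. A lone sequence was the usual case, as only 39 of the 606 precursors had more than 1.

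The precursors of the 3 families differed in how well they fold. The minimal folding free energy index (MFEI), the folding energy per 100 bases divided by the GC percent and given without its sign, is high for compact hairpins and had a median of 0.94 over the 583 listed precursors of known miRNAs. It was 0.59 in peu-MIR2916, and 17 of the 583 precursors had a lower value. It was 0.67 in ptc-MIR6478, with 36 precursors lower. It was 1.18 in hbr-MIR6173, with 535 precursors lower. The folding energies listed by the authors were -28.1 kcal/mol for peu-MIR2916, -44.3 kcal/mol for ptc-MIR6478 and -88.6 kcal/mol for hbr-MIR6173. GC content was 52.2% in peu-MIR2916, 47.8% in ptc-MIR6478 and 53.6% in hbr-MIR6173, against a median of 45.4% over all 583. In the listed structures 16 of the 19 bases of the miR2916 read were paired, 17 of the 23 bases of the miR6478 read and 18 of the 21 bases of the miR6173 read.

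**Figure D1:**
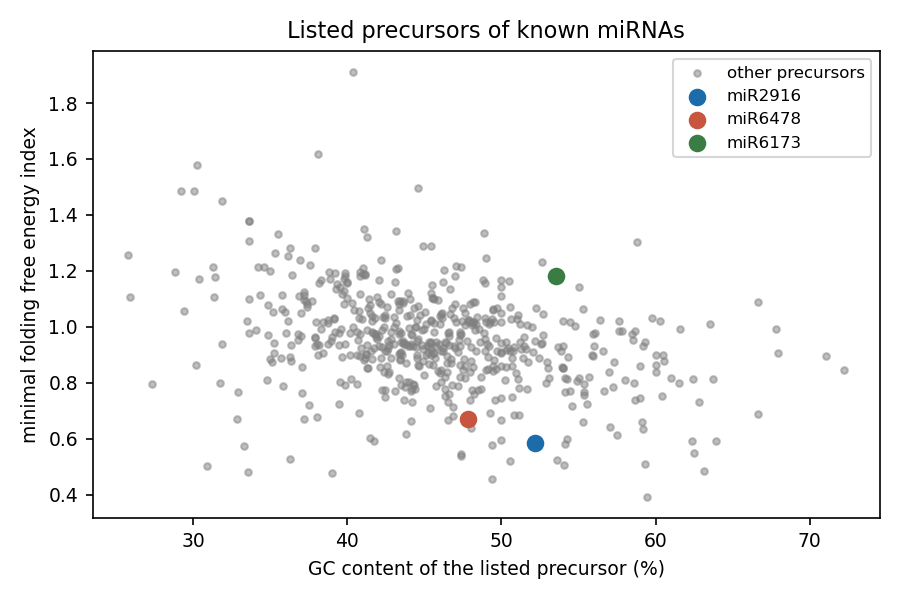
GC content in percent against MFEI for the listed precursors of known miRNAs, 1 point per precursor, with the 3 families in colour. miR2916 (0.59) and miR6478 (0.67) lie low in the cloud and miR6173 (1.18) lies high, at GC contents of 52.2%, 47.8% and 53.6%.

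hbr-MIR6173 held a perfect inverted repeat of 30 bases, in which bases 8 to 37 are the reverse complement of bases 86 to 115. The miR6173 read runs across the start of the right copy. The longest such repeat had 7 bases in peu-MIR2916 (64 to 70 with 86 to 92), outside the read. In ptc-MIR6478 it had 8 bases, ccgacctt at bases 2 to 9 and aaggtcgg at bases 59 to 66. This left copy is the first 8 bases of the miR6478 read, and both copies together span 65 bases. In a tRNA, the acceptor stem is formed by the 5′ end pairing with bases near the 3′ end. Whether the repeat of ptc-MIR6478 is such a stem was not tested. ptc-MIR6478 also held a direct repeat of 11 bases, accgaccttag, at bases 1 and 93, so the first 10 bases of the read occur again in the 3′ part of that precursor.

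Short runs of letters that small-subunit rRNA and tRNA are known to hold were searched on both strands of the 583 precursors. TAAACGATG, found in small-subunit rRNA of cytosol, plastid and bacteria, was in 2 precursors, or 0.343%, and these were peu-MIR2916 (base 43) and hbr-MIR6173 (base 86). It was also the longest run that the 2 precursors shared, so its share over all precursors is a description and not a test. In hbr-MIR6173 the run lies within the read, and its reverse complement is in the left copy of the repeat, at base 29. In peu-MIR2916 it lies downstream of the read. TAGATACCC, found in small-subunit rRNA of the bacterial and plastid type, was in 1 precursor (0.172%), hbr-MIR6173, at base 61. GTAGTCC, from the same stretch of that rRNA, was at base 72 of hbr-MIR6173 and in 5 precursors in all (0.858%).

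The corresponding letters of tRNA were less rare among precursors when both strands were counted. TAGCTCAG, from the D arm of many tRNAs, was in 13 of the 583 precursors (2.23%), among them ptc-MIR6478 at base 9, inside the read. On the listed strand it was in 3 precursors, ptc-MIR6478 included, the same number as for GTAGTCC. In the other 10 it was on the opposite strand, and most of these were precursors of the miR159 family. The tRNA A box, the internal promoter element that overlaps the D arm and this run, was matched by 102 of the 583 precursors (17.5%), ptc-MIR6478 again at base 9 and neither of the other two. The B box, the element of the T arm, was matched by 7 precursors (1.20%) and by none of the 3. These matches are descriptions of letters. The reads were not aligned to rRNA, tRNA or plastid sequence of the sage, which was not used here, so the identity to such RNA was not measured. The sage annotation used here lists 77 rRNA genes, 8 of them in the plastid with 2 of the small subunit, and 12 nuclear genes of tyrosine tRNA.

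The 3 families had very different numbers of reads. miR2916 had 8162 reads over the 4 libraries, 0.506% of all miRNA reads, and stood at place 8 among the sequences. Just above it were vvi-miR319b_R-1 (8958 reads) and har-miR403a (8479 reads), and just below it gma-miR168a (4723 reads) and ppe-miR1511-3p_L+1R-4 (4329 reads). miR6478 had 2781 reads, or 0.172%, at place 14. The sequences around it were lus-miR171h_L-1R+1 (3324 reads) and gma-miR396a-5p (2981 reads) above, and mtr-miR396b-3p_L-1_1ss12CT (2538 reads) and gma-miR6300_R+5 (1556 reads) below. miR6173 had 406 reads, or 0.0252%, at place 28. It lay below ath-miR394a (637.0 reads) and cpa-miR390a (498.5 reads) and above zma-miR164c-3p_2ss7CT16TC (379.0 reads) and nta-miR477a (292.3 reads). In that company are miR319, miR171 and miR396, conserved regulators of TCP, GRAS and growth-regulating transcription factors. Together the 3 families had 11349 reads, 0.704% of the total.

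Levels between libraries are given as normalized counts, the reads multiplied by 1 factor that the authors set for each library (1.90 for leaf, 1.41 for flower, 0.715 for stem and 0.547 for root). The table held 499434 reads of the root library, 494824 of the flower library, 380306 of the stem library and 238148 of the leaf library. Intervals are exact 95% intervals and cover counting error only.

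With the authors' factors, miR2916 differed by 1.55-fold at most between the libraries. On the 4 other scales described below the highest library was 3.11- to 3.37-fold above the lowest. It had 3106 reads in stem, 1298 in flower, 3006 in root and 752 in leaf. The normalized counts were 2219.9 in stem (interval 2142 to 2299), 1829 in flower (1731 to 1931), 1645 in root (1587 to 1705) and 1430.0 in leaf (1329.6 to 1536). No pair of these 4 intervals overlapped. Stem was 1.55-fold higher than leaf (1.43 to 1.68), 1.35-fold higher than root (1.28 to 1.42) and 1.21-fold higher than flower (1.14 to 1.30). The smallest step was flower over root, at 1.11-fold (1.04 to 1.19).

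With the same factors, miR6478 was highest in root and flower and lowest in leaf. It had 1311 reads in root, 500 in flower, 763 in stem and 207 in leaf. The normalized counts were 718 in root (679 to 757), 704 in flower (644 to 769), 545 in stem (507 to 585) and 394 in leaf (342 to 451). Root and flower could not be told apart, with a ratio of 1.02 (0.918 to 1.13), and every other pair differed beyond counting error. The place of flower depends on the scale, since flower over root was 0.385 as a share of the miRNA table, where stem over root was 0.764. Root was 1.82-fold higher than leaf (1.57 to 2.12) and 1.32-fold higher than stem (1.20 to 1.44).

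miR6173 was far higher in leaf and stem than in the other libraries. It had 181 reads in leaf, 174 in stem, 24 in flower and 27 in root. The normalized counts were 344 in leaf (296 to 398), 124 in stem (107 to 144), 33.8 in flower (21.7 to 50.3) and 14.8 in root (9.74 to 21.5). Leaf held 66.6% of the summed normalized count. Leaf was 23.3-fold higher than root (15.5 to 36.3), 10.2-fold higher than flower (6.63 to 16.3) and 2.77-fold higher than stem (2.24 to 3.43). Stem was 8.42-fold higher than root (5.59 to 13.1) and flower 2.29-fold higher than root (1.26 to 4.12), on only 24 and 27 reads.

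**Figure D2:**
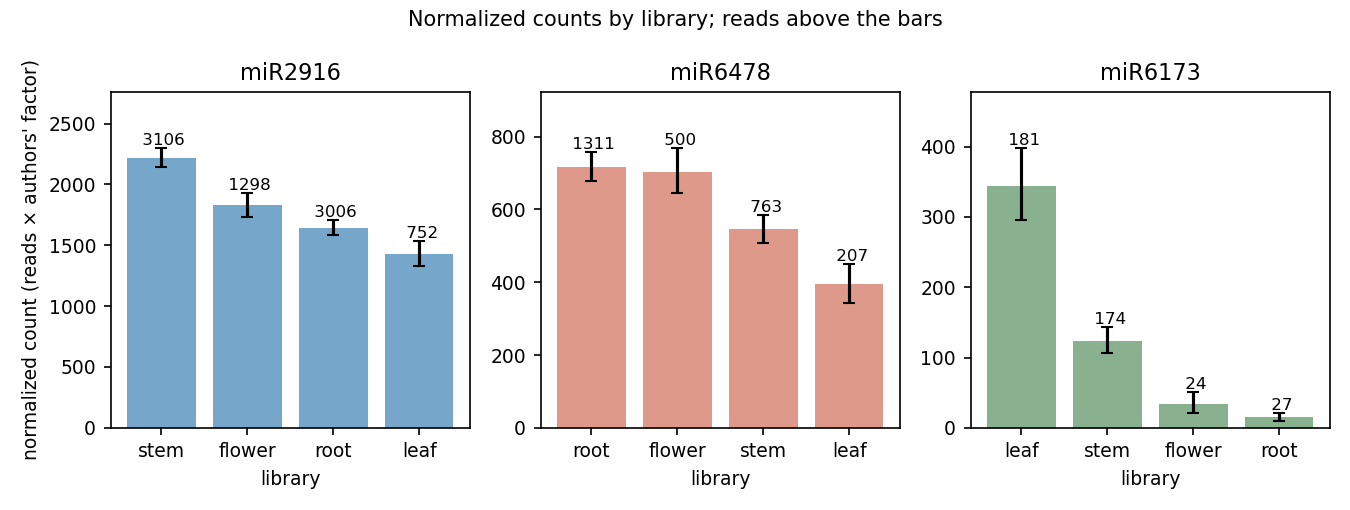
Normalized counts of the 3 families, 1 panel each with its own axis from 0, libraries in order of falling level. Bars are single libraries, error bars the exact 95% Poisson intervals, and the numbers above them the reads. miR2916 runs between 2219.9 in stem and 1430.0 in leaf, miR6478 between 718 in root and 394 in leaf, and miR6173 between 344 in leaf and 14.8 in root.

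Pearson's chi-squared test over the 4 libraries gave p = 2.57e-42 for miR2916, p = 9.56e-20 for miR6478 and p = 1.68e-114 for miR6173. These values compare libraries and not tissues, and a p under 0.01 was common, with 39.1% of the 220 sequences that had a whole read and 97.4% of the 38 with at least 100 reads. With the Z-value over the 4 normalized counts, where above 1 is called up-regulated and below -1 down-regulated, miR2916 was up-regulated in stem (1.31) and down-regulated in leaf (-1.05). miR6478 was down-regulated in leaf (-1.29) and in no library up-regulated, its highest Z-value being 0.83 in root. miR6173 was up-regulated in leaf (1.42). All these calls rest on the authors' factors. They were not computed on the other scales, where the spacing of the libraries differs, so they may not hold there. Of the 38 sequences with at least 100 reads, 10.5% were up-regulated in stem, 26.3% up-regulated in leaf and 15.8% down-regulated in leaf by the same rule. The Z-value has no unit of size, so miR2916 passes it at a range of 1.55-fold as miR6173 does at 23.3-fold.

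By the ratio of the highest to the lowest library, miR2916 and miR6478 were the 2 flattest of the 38 sequences with at least 100 reads, whose median was 3.82-fold, and 50.0% of the 38 reached 4-fold. miR6173 stood at place 31 from the smallest. That order rests on the authors' factors. Per 1000000 clean reads, miR2916 was at place 14 and miR6478 at place 16, and as a share of the miRNA table at places 10 and 9. miR6173 stayed at places 28 to 30 on the other scales. By leaf over root alone, a comparison whose order no factor can change, miR6173 was at place 2 of 38 from the top, miR2916 at place 23 and miR6478 at place 27. The leaf-over-root ratio was 0.869 for miR2916 and 0.549 for miR6478, and the median of the 38 was 1.62.

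**Figure D3:**
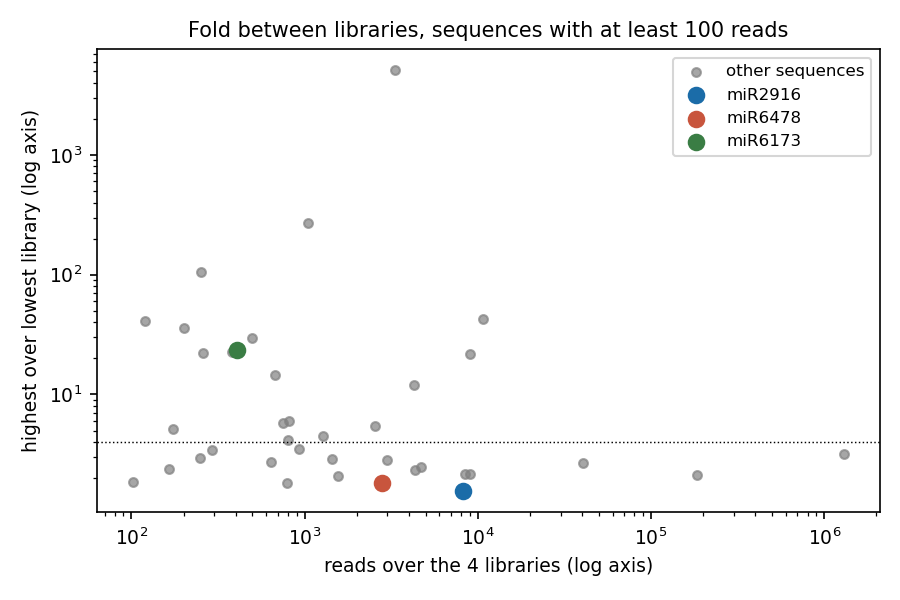
Total reads against the ratio of the highest to the lowest library for the 38 sequences with at least 100 reads, both axes logarithmic; the dotted line is at 4-fold. miR2916 (1.55) and miR6478 (1.82) lie at the bottom and miR6173 (23.3) lies above the 4-fold line.

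With other scales the highest and lowest libraries of miR2916 and miR6478 lay further apart. The authors' factors imply 11.8% of the summed depth for leaf, where clean reads give 21.6%, and the 4 libraries also differ in the share of miRNA reads, from 4.43% of clean reads in leaf to 12.2% in flower. Per 1000000 clean reads miR2916 had 472 in stem, 339 in root, 319 in flower and 139.8 in leaf, and miR6478 had 148 in root, 123 in flower, 116 in stem and 38.5 in leaf. miR6173 had 33.7 in leaf, 26.4 in stem, 5.90 in flower and 3.05 in root, so leaf and stem are closer on that scale. The last scale was the reads set aside by the authors as rRNA or tRNA, chosen for each family by its known resemblance, without measuring identity. Per 10000 rRNA reads, miR2916 had 41.4 reads in stem, 25.1 in root, 24.0 in flower and 12.7 in leaf. miR6173 had 3.05 in leaf, 2.32 in stem, 0.443 in flower and 0.226 in root per 10000 rRNA reads. Per 10000 tRNA reads, miR6478 had 67.7 in root against 29.2 in leaf, with stem (62.2) and flower (60.0) near root. Under all 5 scalings leaf was below root for miR2916 and miR6478 and above root for miR6173. Stem was highest for miR2916 and leaf highest for miR6173 in each of them. The smaller steps turned with the scale. Flower over root for miR6173 was 2.29 with the authors' factors and 0.897 as a share of the miRNA table, for miR2916 it was 1.11 with the factors and 0.436 to 0.954 on the other 4 scales, and stem over root for miR6478 was 0.760 with the factors and 1.02 without the 10 most abundant sequences. Flower over root for miR6478 was 0.982 with the factors and 0.385 to 0.887 on the other 4 scales, below stem in all but the factors and clean reads.

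**Figure D4:**
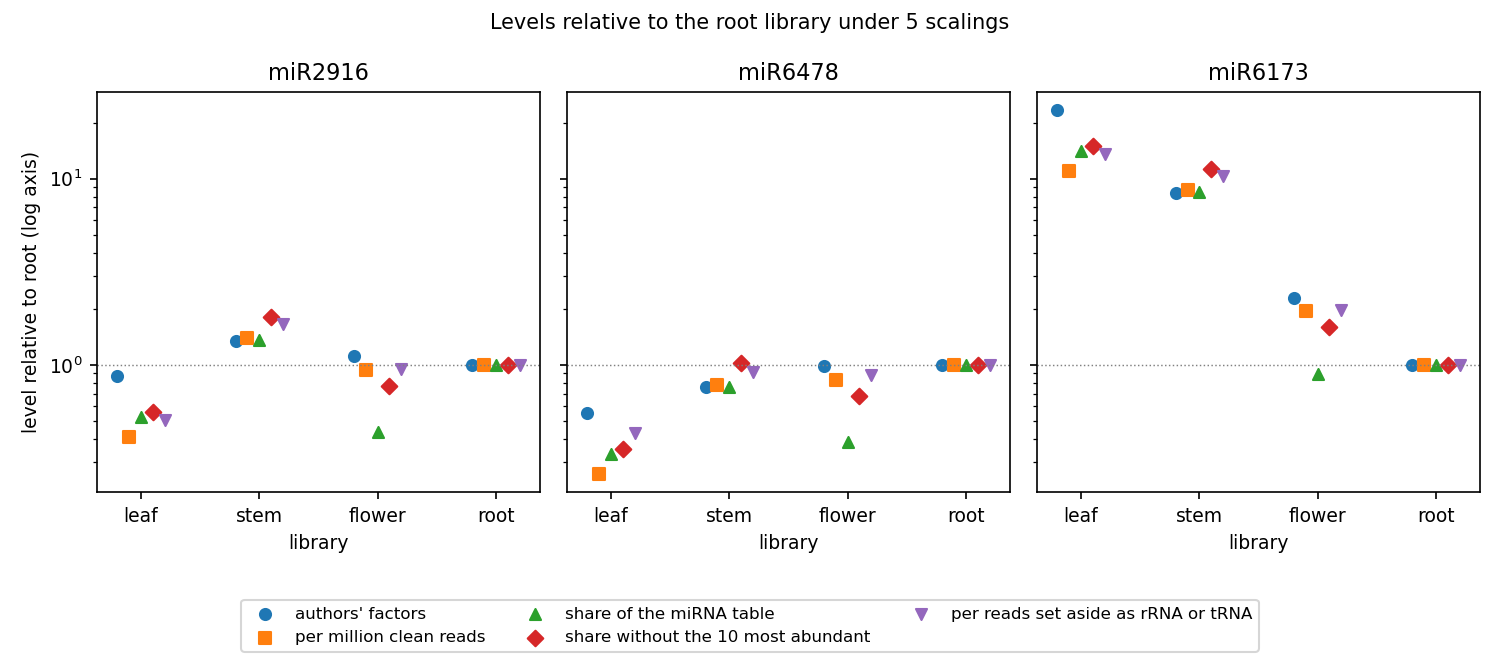
Level of each family in leaf, stem and flower relative to root under 5 scalings of the libraries, on a logarithmic axis; the last scaling uses rRNA reads for miR2916 and miR6173 and tRNA reads for miR6478. In leaf miR6173 lies between 11.0 and 23.3 times root, miR2916 between 0.412 and 0.869 and miR6478 between 0.260 and 0.549.

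Ratios between the families within a library are free of any factor. For every 1000 reads of miR2916 there were 241 reads of miR6173 in leaf (203 to 283), 56.0 in stem (47.8 to 65.3), 18.5 in flower (11.8 to 27.6) and 8.98 in root (5.91 to 13.1). The ratio of miR6173 to miR2916 was therefore 26.8 times higher in leaf than in root (17.6 to 42.1), 4.29 times higher in leaf than in stem (3.42 to 5.40) and 6.24 times higher in stem than in root (4.13 to 9.76). Both families are known to resemble small-subunit rRNA, of plastid and cytosol, but whether this bears on the ratio was not tested. Against miR6478 the contrast was larger, with miR6173 at 0.874 reads per read of miR6478 in leaf (0.712 to 1.07) and 0.0206 in root (0.0135 to 0.0301), 42.3 times apart (27.3 to 67.7). In leaf alone the interval of this ratio includes 1.

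miR2916 and miR6478 did not keep a fixed ratio either. There were 4.07 reads of miR2916 per read of miR6478 in stem (3.76 to 4.41), 3.63 in leaf (3.11 to 4.26), 2.60 in flower (2.34 to 2.88) and 2.29 in root (2.15 to 2.45). The ratio was 1.78 times higher in stem than in root (1.60 to 1.97) and 1.58 times higher in leaf than in root (1.34 to 1.88). Stem and leaf did not differ beyond counting error (1.12, 0.938 to 1.34).

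**Figure D5:**
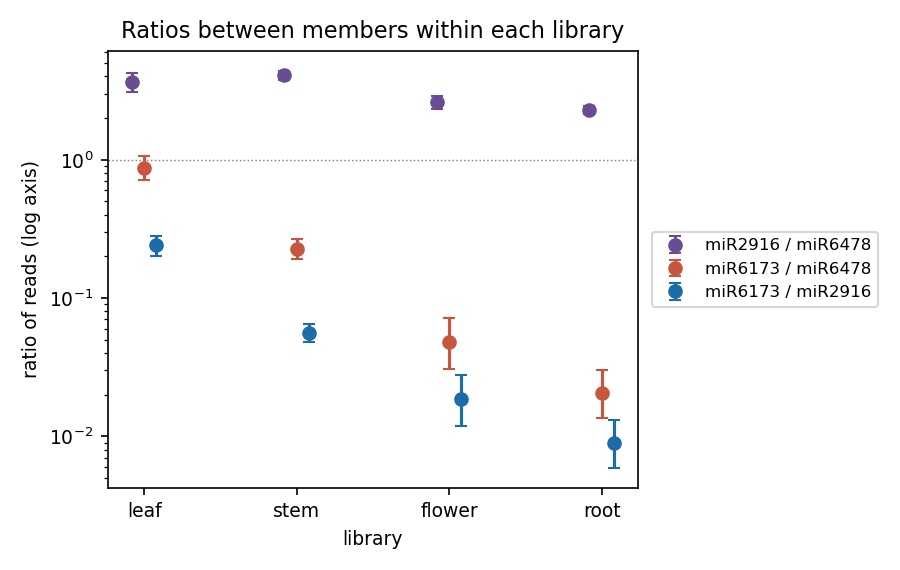
Ratios of reads between the 3 families within each library, on a logarithmic axis, with exact 95% intervals. miR6173 per miR2916 is 0.241 in leaf and 0.00898 in root, while miR2916 per miR6478 stays between 2.29 and 4.07.

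The sequences most like each family in their tissue profile were found among the other 37 with at least 100 reads, by the share of the normalized count that would have to move between libraries to make both profiles equal. Nearest to miR2916 were gma-miR6300_R+5 at 9.50 percentage points, bdi-miR156d-3p_3ss7TC8G-13GC at 11.3 and csi-miR396a_1ss21GT at 11.3, with a median of 24.6 over the 37. Nearest to miR6478 were gma-miR6300_R+5 at 6.82, ppe-miR1511-3p_L+1R-4 at 9.37 and ppt-miR894_R+1 at 11.0, with a median of 24.4. The normalized counts of gma-miR6300_R+5 were 476 in flower, 352 in stem, 332 in root and 226 in leaf. miR2916 and miR6478 were 11.5 points apart, so neither was among the 3 nearest of the other.

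miR6173 had no near neighbour. The closest profiles were mtr-miR396b-3p_L-1_1ss12CT at 21.7 points, aly-miR408-3p_L-1R+1 at 23.2 and bdi-miR156b-5p_L+1_1ss20AC at 24.7, with a median of 50.2. Of these, mtr-miR396b-3p_L-1_1ss12CT had 1124 normalized counts in leaf, 819 in stem, 206 in flower and 358 in root. aly-miR408-3p_L-1R+1, of a family that targets mRNAs of copper proteins, had 245 in leaf, 11.0 in stem, 100.4 in flower and 23.4 in root. Its leaf share of the summed normalized count, 64.5%, was near the 66.6% of miR6173. Stem held 2.91% of it against 24.0% for miR6173, and flower 26.5% against 6.54%. The distance to miR2916 was 46.5 points and to miR6478 50.8 points. The profiles rest on 1 library per tissue and share its depth.

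No cleaved target of the 3 families was listed in the degradome. Of its 82 pairs of a small RNA and a cleaved transcript, 0 named a family member, 0 held its sequence and 0 shared its first 18 bases. Such pairs were few for other abundant sequences as well. Of the 38 sequences with at least 100 reads 7 had a pair, and of the 28 at or above the reads of miR6173 there were 4. The list holds pairs that passed the cleavage analysis, so a target that was not cut, or cut too rarely to be listed, would not be seen.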

How the data were processed

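The authors made 1 small RNA library per tissue, removed adapters, rRNA, tRNA, other common RNAs, repeats and reads outside 18 to 25 nt, and compared the rest with miRBase and ESTs. Their deposited reads per entry are estimated counts, since a read with several entries is divided among them; the deposited normalized counts are a signal, reads times 1 factor per library. GC percent, folding energy and structure of precursors are as deposited by the authors. The degradome table, made by the authors with CleaveLand, holds the count of raw reads at each site. As rRNA and tRNA reads were removed, any fragment of such RNA counted here would be one that the filter left.

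Reads were summed per sequence. For scalings other than the authors' factors, the totals of clean, rRNA and tRNA reads that the study gives were used. Relative depths were the inverse of the factors, tests were Pearson's chi-squared on 3 degrees of freedom, or exact multinomial where an expected count was under 5, and the threshold was p = 0.01 without adjustment, on all 220 sequences with whole reads; the test was checked on simulated data. Intervals are exact Poisson, or Clopper-Pearson for ratios. For a count of 0 the limit is taken as 3 reads. MFEI was computed from the deposited values. The sequences named are the 3 families, for each the 3 nearest profiles among sequences with at least 100 reads, and the 2 sequences just above and just below in reads. Members and lists were chosen with earlier results of these data known. The places by fold under other scalings were chosen after seeing the data. In the miRNA table, 6 lines were not analysed here. Python 3.11.15, numpy 2.4.6, scipy 1.17.1 and pandas 2.3.3 were used.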

Additional observations from a re-analysis of the deposited data

How the results depend on the processing

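The sizes of the differences between libraries depended on the scaling. Per 1000000 clean reads, stem over leaf was 3.37 for miR2916, root over leaf 3.85 for miR6478 and leaf over root 11.0 for miR6173. As a share of the miRNA table the same ratios were 2.59, 3.02 and 14.1 in that order of families, without the 10 most abundant sequences 3.25, 2.84 and 14.9, and per 10000 rRNA or tRNA reads 3.27, 2.32 and 13.5. By share of the table flower was the lowest library for miR2916 (stem over flower 3.11) and miR6173 (leaf over flower 15.7), and without the 10 most abundant sequences stem was the highest for miR6478 (stem over leaf 2.90). The Z-value of miR6173 in root was -1.09 on the log2 scale, which calls it down-regulated there. Sequences with p under 0.01 were 37 among those with at least 100 reads, against 86 with no minimum. Sequences at least 4-fold apart were 60 of 95 with at least 10 reads and 7 of 19 with at least 1000 reads, against 19 of 38. Apart from the places by fold, which all moved, the other 57 values under alternatives were counted as unchanged. Among them were each family's tests under the G test, the Benjamini-Hochberg adjustment and depths from clean reads. Where these values had a threshold, they stayed on the same side of it. They also kept their direction, except the Z-value of miR6173 in stem. That value was -0.03 and turned to 0.43 on the log2 scale. The Z-values were varied by the log2 scale and the kind of standard deviation, and not by the scaling of the libraries. The count includes the nearest profiles, although per 1000000 clean reads miR2916 and miR6173 each kept only 2 of their 3. No paired analysis was possible because each tissue had 1 library. The 24 reads in flower and 27 in root limit what can be said of miR6173 there.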
